A study of Rattus norvegicus with 4 samples.

Results

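Pleiotrophin, midkine, vascular endothelial growth factors, endothelin 3 and FGF9 are secreted signals, and the genes for them and for 3 of their receptors were followed here through the cells of the rat anterior pituitary. The 10 genes were Ptn, Mdk, Ptprz1, Vegfa, Vegfb, Vegfc, Kdr, Edn3, Ednrb and Fgf9, taken by symbol from the 30058 genes of a single-cell UMI count matrix (a UMI tags 1 captured RNA molecule). All 10 were found. The matrix held 7861 cells of 4 droplet lanes of the 10X Genomics 3′ assay. The lanes came from 1 pool of 4 pituitaries per sex of Sprague Dawley rats, females of postnatal day 44 in diestrus and males of day 59, with 2 lanes per pool, so that sex, age and pool cannot be told apart and the lanes of a sex are technical replicates. The glands were freshly dispersed with trypsin and EDTA, and the labels name no treatment. Transcripts were counted at their 3′ ends, so levels are compared between cell types and never between genes.

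Pleiotrophin (Ptn) and midkine (Mdk) are related heparin-binding growth factors that bind the receptor phosphatase zeta (Ptprz1), the receptor kinase Alk and cell surface proteoglycans such as the syndecans. VEGF-A acts through Kdr and Flt1, VEGF-B through Flt1, and VEGF-C through Flt4 and Kdr; in endocrine glands these ligands are known for keeping the fenestrated capillaries into which hormones are released. Endothelin 3 (Edn3) acts on the endothelin B receptor (Ednrb), a G protein-coupled receptor that binds all endothelins. FGF9 is a secreted fibroblast growth factor that acts on Fgfr2 and Fgfr3. The anterior pituitary holds 5 hormone-producing types, the somatotrophs (S, growth hormone), lactotrophs (L, prolactin), corticotrophs (C, ACTH), thyrotrophs (T, thyrotropin) and gonadotrophs (G, the gonadotropins), together with the non-hormonal folliculostellate cells (FSC), which form a network between them, and blood vessels.

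The 6845 cells kept after classification and quality control (3305 female and 3540 male) comprised 2315 FSC, 791 C, 239 G, 85 T, 1891 S, 485 L, 132 endothelial cells (EC), 546 leukocytes (Le) and 361 erythrocytes (E). The types were set by marker genes that include none of the 10 genes. Markers that the rules did not use were mostly high in their types: Cdh5 was above threshold in 87.9% of EC and at most 0.183% of any other type, Sox2 in 69.2% of FSC and at most 10.4% elsewhere, Tbx19 in 70.7% of C, Nr5a1 in 69.5% of G and Pou1f1 in 88.5% of lactotrophs, 75.8% of S cells and 60% of thyrotrophs. Aldh1a1, also checked as an FSC marker, was less selective, at 55.5% of FSC, 24.3% of L and 41.2% of the pericytes left out of these types. The lanes held 18955509 to 24048021 UMIs, and the median depth of the types ran from 6499.5 UMIs in Le to 13638 in S. It differed between the sexes most in L, with 18301 UMIs in females and 7253.5 in males. Levels are given as UMIs of the gene per 10000 UMIs of the cell type in a lane, always in the order female lane a, female lane b, male lane a and male lane b. The totals include hormone transcripts, which lowers the levels of other genes in types rich in them. In the tests below, edgeR rescaled the totals, by normalization factors (TMM) of 0.652 in female L and 1.02 in male L. A cell was counted as expressing a gene when its normalized log10 level reached the Otsu threshold of that gene, the cut that best separates low from high values, and shares carry exact 95% Clopper-Pearson intervals that cover counting error only. A lower level in a type can come from fewer cells with the transcript or from less of it per cell, so shares and levels are given side by side. Across the lanes, 30 cell barcodes occurred in 2 or more lanes.

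**Figure D1:**
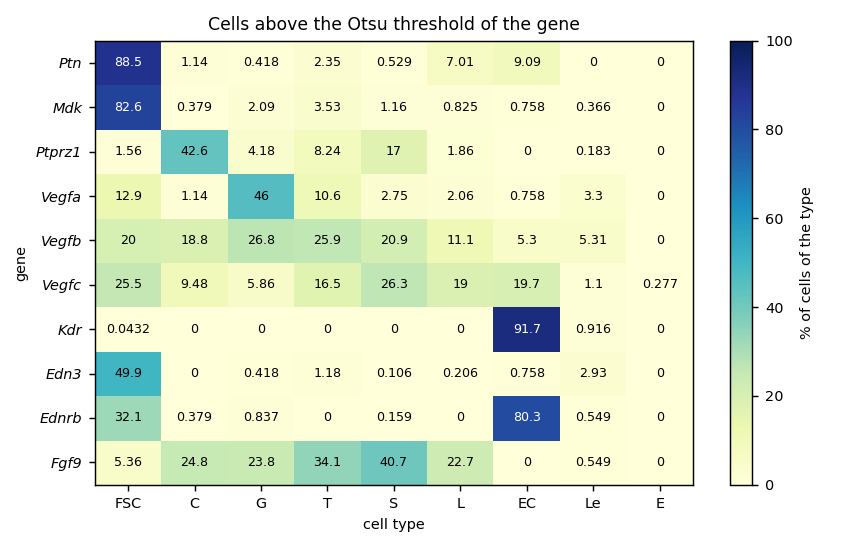
Share of cells of each type (columns) above the Otsu threshold of each gene (rows), in percent of the cells of the type over all 4 lanes; the colour repeats the printed value. Ptn, Mdk and Edn3 are highest in FSC, Kdr and Ednrb in EC, Ptprz1 in C, Vegfa in G and Fgf9 in S, while Vegfb and Vegfc are spread over several types.

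For orientation in the genome, the 250 bases before the annotated start of Kdr and Ednrb, the receptor genes highest in EC, and of Ptn, a ligand gene of FSC, are shown, 5′ to 3′ of the gene. They come from RefSeq on GRCr8, another assembly than the one used for counting, where 7 of the 10 genes had an entry. The windows are Kdr at chr14:32571813-32572062 on the plus strand, Ednrb at chr15:87086766-87087015 on the minus strand and Ptn at chr4:66342333-66342582 on the minus strand. Capitals mark matches on either strand to CCGGAA, the core bound by ETS factors, a family known for endothelial genes, or to ACAAAG, a core bound by SOX factors. The cores were chosen with these sequences in view.
Kdr: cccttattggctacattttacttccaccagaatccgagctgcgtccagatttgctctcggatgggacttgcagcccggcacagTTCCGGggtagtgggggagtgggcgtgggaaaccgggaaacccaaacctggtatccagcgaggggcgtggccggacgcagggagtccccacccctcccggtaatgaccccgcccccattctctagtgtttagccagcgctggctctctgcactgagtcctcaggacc
Ednrb: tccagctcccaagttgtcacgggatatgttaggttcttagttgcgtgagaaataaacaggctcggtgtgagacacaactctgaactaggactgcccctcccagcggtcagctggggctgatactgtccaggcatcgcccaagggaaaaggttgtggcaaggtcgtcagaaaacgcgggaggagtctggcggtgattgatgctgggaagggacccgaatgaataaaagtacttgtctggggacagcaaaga
Ptn: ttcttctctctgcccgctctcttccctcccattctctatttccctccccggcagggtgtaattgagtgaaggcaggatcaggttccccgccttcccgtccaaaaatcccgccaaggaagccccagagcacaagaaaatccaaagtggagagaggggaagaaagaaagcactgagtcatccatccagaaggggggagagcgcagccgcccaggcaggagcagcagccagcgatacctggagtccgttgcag
The ETS core was found 1 time before Kdr and 0 times before Ednrb and Ptn, and 12.6% of the 33469 windows of this length held it. The SOX core was found in none of the 3 windows, and 16.3% of all windows held it. A match is a string of letters and no evidence that a factor binds there, and its lack says nothing about the factor.

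Among the 9 types, Ptn and Mdk were FSC transcripts. Cells named as pericytes or posterior lobe cells were left out of these types. They held both transcripts at higher levels than FSC as a whole, as given further below. Ptn was above threshold in 88.5% of FSC (2049 of 2315 cells, interval 87.1 to 89.8%), and FSC held 94.9% of all Ptn UMIs in the 9 types. Its level in FSC was 14.5, 15.6, 10.3 and 9.69 UMIs per 10000 in the 4 lanes. Every FSC lane lay above every lane of every other type, the next being EC at 0.269, 0.562, 4.01 and 2.59 UMIs per 10000. Mdk was above threshold in 82.6% of FSC (interval 81.0 to 84.1%), at 4.11, 4.28, 4.38 and 4.35 UMIs per 10000. Over all lanes no other type exceeded 3.53% of cells for Mdk, and no lane of another type exceeded 0.177 UMIs per 10000. The FSC lanes of Mdk also lay close together, whatever the sex of the pool.

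After FSC, the next levels of Ptn were in EC and L, and that of EC came mostly from few cells of the male pool. Ptn was above threshold in 7.01% of L (34 of 485 cells) and 9.09% of EC (12 of 132), against 2.35% of T, 1.14% of C and at most 0.529% of G, S and Le. Free RNA reaches droplets of other cells, and at least 1 Ptn UMI was present in 31.1% of L, 22.0% of EC, 19.8% of C and 3.66% of Le, where median depths were 10215, 7335.5, 11474 and 6499.5 UMIs. After each cell was thinned to 3000 UMIs, the shares with a Ptn UMI were 13.6% in L and 15.2% in EC against 1.28 to 7.06% in the other types outside FSC and E. Of the 178 Ptn UMIs of EC, 151 were male, 39 of them in 1 cell, and female EC stood at 0.401 UMIs per 10000 against 0.421 in female L. Without EC that held pericyte or FSC marker UMIs, male lane b kept 1 Ptn UMI (0.0743 per 10000). In L, Ptn stood at 0.511, 0.330, 1.24 and 0.908 UMIs per 10000. The higher T lane, 1.32 in female lane a against 0.185 to 0.212 in the other 3, rested on 1 cell that held 13 of its 15 UMIs.

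Ptprz1, the receptor phosphatase that both growth factors bind, was highest in corticotrophs. It was above threshold in 42.6% of C (337 of 791 cells, interval 39.1 to 46.1%), 17.0% of S, 8.24% of T and 4.18% of G, and in 1.56% of FSC, the cells with the ligands. Its levels in C were 0.400, 0.490, 0.557 and 0.540 UMIs per 10000, and in S 0.126, 0.1402, 0.183 and 0.192. No UMI of Ptprz1 was seen in EC, and the level in C was at least 19.4-fold higher than the limit of 3 UMIs in all EC allows. The C lanes lay above the S lanes throughout, and the difference between C and S, 1.27 on the log2 scale (SE 0.30), did not pass the limit of 0.001 used in the fit between types (edgeR adjusted p = 0.00633).

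Of the VEGF ligands, Vegfa, the main angiogenic one, was highest in gonadotrophs among the 9 types. It was above threshold in 46.0% of G (110 of 239 cells, interval 39.6 to 52.6%), 12.9% of FSC and 10.6% of T, and in at most 3.30% of the other types. In G its level was 0.457, 0.423, 1.09 and 1.31 UMIs per 10000, and in FSC 0.245, 0.247, 0.181 and 0.198. All G lanes lay above all FSC lanes, and the 2 male G lanes lay well above the 2 female ones. FSC, with 2315 cells against 239, held 54.4% of the Vegfa UMIs and G 25.8%.

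Vegfb was found in 8 of the types with no step in its order past the limit, and Vegfc was higher in some types than in others. Vegfb, the ligand of Flt1, was above threshold in 26.8% of G, 25.9% of T, 20.9% of S, 19.96% of FSC, 18.8% of C and 11.1% of L, and in 5.30% of EC and 5.31% of Le. None of the 7 steps between neighbours in the order of its levels passed the limit (smallest edgeR adjusted p = 0.159). Vegfc, the ligand of Flt4, was above threshold in 26.3% of S, 25.5% of FSC, 19.7% of EC, 19.0% of L and 16.5% of T, and in 9.48% of C, 5.86% of G and 1.10% of Le. In direct pairs it was higher in FSC than in C (log2 difference 1.88, edgeR adjusted p = 0.000174) and G (2.23, adjusted p = 0.000368). The pairs of C and G against S passed too, at -1.99 (adjusted p = 0.000309) and -2.34 (adjusted p = 0.000589). Its levels were 0.541, 0.467, 0.351 and 0.333 UMIs per 10000 in FSC and 0.281, 0.356, 0.308 and 0.279 in S, and these 2 types overlapped once the male FSC lanes were included. In L the 2 female lanes, at 0.136 and 0.115, lay below the 2 male lanes, at 0.340 and 0.454. The edgeR estimate, with rescaled totals, was smaller than these levels show, at 2.03-fold higher in male L. At 3000 UMIs per cell the highest share was 11.5% for Vegfc (FSC) and 8.79% for Vegfb (G).

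Kdr, the main signalling receptor for VEGF-A, was a transcript of endothelial cells. It was above threshold in 91.7% of EC (121 of 132 cells, interval 85.6 to 95.8%), at 12.8, 10.7, 17.0 and 15.0 UMIs per 10000, and EC held 94.8% of its UMIs. No UMI was seen in T, where the level in EC was at least 430-fold higher than the limit of 3 UMIs allows. In Le, 0.916% of cells were above threshold. The 36 Kdr UMIs of Le sat in few cells, and 13 of the 20 UMIs of female lane b were in 1 cell. The other 3 Le lanes held 2, 5 and 9 UMIs.

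Of the endothelin pair, the ligand gene was highest in FSC and the receptor gene in EC among the 9 types. Edn3 was above threshold in 49.9% of FSC (1156 of 2315 cells, interval 47.9 to 52.0%), at 2.36, 2.24, 2.12 and 2.04 UMIs per 10000, and FSC held 98.0% of its UMIs. Its receptor Ednrb was above threshold in 80.3% of EC (106 of 132 cells, interval 72.5 to 86.7%) and in 32.1% of FSC (742 cells, interval 30.2 to 34.0%). It stood at 2.42, 1.98, 2.93 and 3.58 UMIs per 10000 in EC and at 0.575, 0.586, 0.892 and 0.723 in FSC. Every EC lane lay above every FSC lane, and no other type exceeded 0.837% of cells. None of the 485 L and none of the 85 T held an Ednrb UMI, which allows shares of up to 0.619% and 3.53% of cells with a UMI. Edn3 in the remaining types was highest in Le, at 2.93% of cells and 27 UMIs.

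Fgf9 was found mainly in the 5 hormone-producing types. It was above threshold in 40.7% of S (interval 38.4 to 42.9%), 34.1% of T, 24.8% of C, 23.8% of G and 22.7% of L, against 5.36% of FSC and 0.549% of Le. In S its level was 0.465, 0.426, 0.5996 and 0.520 UMIs per 10000. In T it was 0.264, 0.432, 0.198 and 0.795, so that the lanes of this small type lay from below to above those of S. No Fgf9 UMI was seen in the 132 EC, which allows up to 2.27% of cells with a UMI, and the level in S was at least 19.7-fold higher than the limit of 3 UMIs in all EC. Reads of Fgf9 were among those that the submitters recovered by extending gene 3′ ends, so its counts depend on that step.

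**Figure D2:**
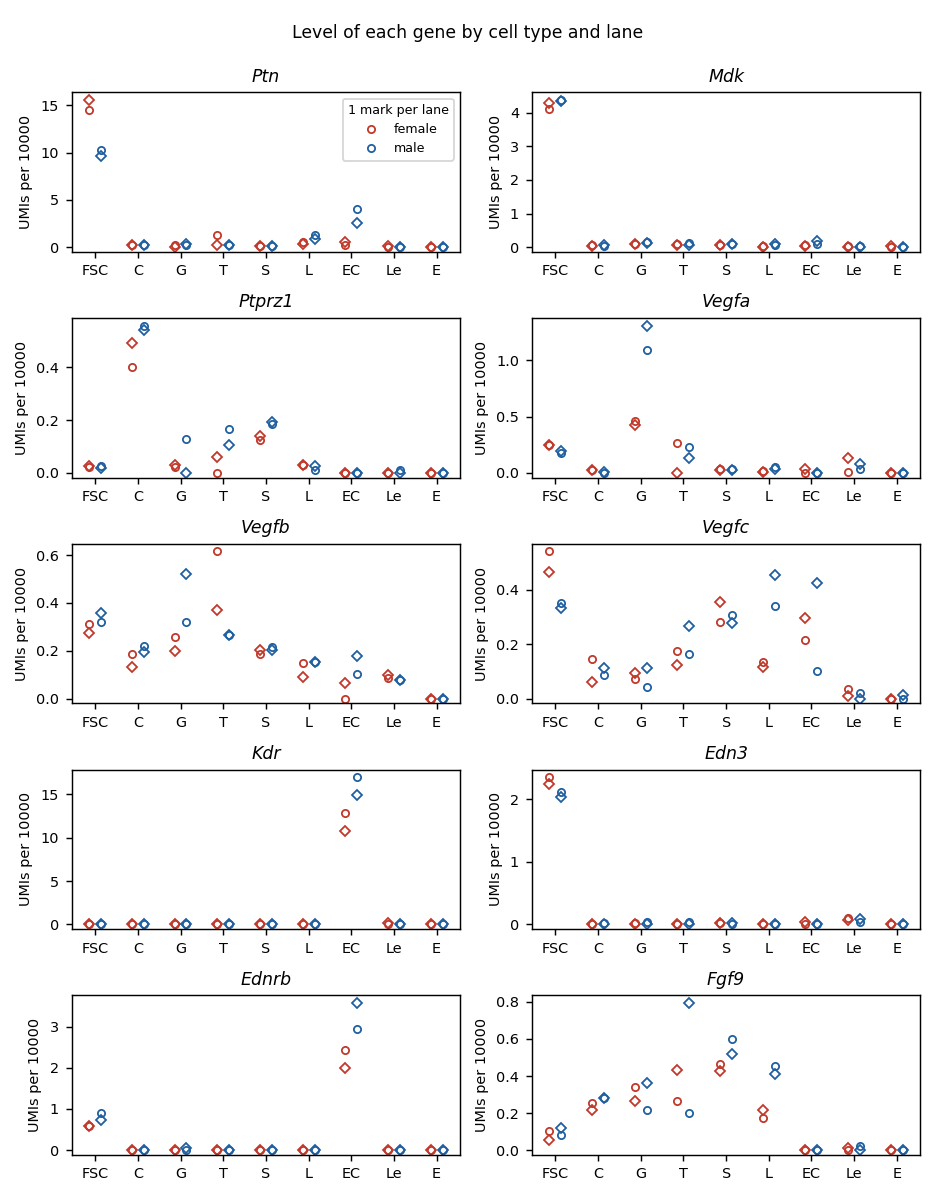
Level of each gene in the 9 cell types, in UMIs per 10000 UMIs of the type (linear axes that differ between panels), 1 mark per lane with circles for lane a and diamonds for lane b. The 4 FSC lanes of Ptn, from 9.69 to 15.6, and the 4 EC lanes of Kdr, from 10.7 to 17.0, lie above all lanes of the other types; Vegfb and Fgf9 overlap among the hormone-producing types.

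The differences between types were tested with edgeR's quasi-likelihood test on the UMI sums of 8 types in each sex (16 sums, E left out because globin fills their counts), each type against the mean of the other 7, and a gene was called at a Benjamini-Hochberg adjusted p below 0.001 over the 13611 genes tested. In FSC, 6 of the 10 genes were higher (Edn3, Ednrb, Mdk, Ptn, Vegfa and Vegfc), where 16.4% of all genes were called higher. The median log2 difference of the 10 genes in FSC was 1.66 against 0.13 over all genes. The genes were chosen with earlier results of these data known, and the paper lists Ptn, Mdk and Edn3 as dominant in FSC. The excess over all genes is thus no independent result. Edn3 was higher by 7.09 (SE 0.16, adjusted p = 9.15e-14), Mdk by 5.97 (SE 0.14, adjusted p = 9.15e-14), Ptn by 5.24 (SE 0.32, adjusted p = 2.13e-09), Vegfa by 1.86 (SE 0.33, adjusted p = 0.000261) and Vegfc by 1.45 (SE 0.22, adjusted p = 7.33e-05). Ednrb in FSC passed as well (edgeR adjusted p = 3.93e-10), but its fitted difference depends on how types without a UMI are treated. The sizes of the other differences depend likewise on types with few UMIs, as for Edn3, with 1 in T, 1 in EC and 2 in L. The direct pairs of types serve better for size.

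Among the hormone-producing types, Fgf9 was called higher in each of the 5. The log2 differences were 3.41 in S (SE 0.22, adjusted p = 4.31e-08), 2.72 in T (adjusted p = 0.000103), 2.47 in L (adjusted p = 1.47e-05), 2.08 in G (adjusted p = 0.000299) and 1.88 in C (adjusted p = 0.000248), and each depends on how EC, which held no Fgf9 UMI, is treated in the fit. The background of genes called higher was 8.82% in S, 3.15% in T, 6.33% in L, 6.45% in G and 8.88% in C. Ptprz1 was called higher in C and S, Vegfa in G, by 4.04 (SE 0.32, adjusted p = 2.71e-07), and Vegfc in S, by 1.58 (SE 0.22, adjusted p = 6.05e-05). Ptprz1 had 0 UMIs in EC and 1 in Le, and Vegfa had 1 in EC, so the sizes of their differences depend on these types. C had 2 of the 10 genes called higher, G 2, S 3, T 1 and L 1. The single gene called lower in a hormone-producing type was Mdk in C, by -1.42 (SE 0.26, adjusted p = 0.000539), where 2.6% of all genes were lower. This call rested on 40 UMIs, and it was weaker in 5 of the alternatives and the same in 7. Mdk was as low in L, at 0.0413 UMIs per 10000 against 0.0430 in C, and that pair did not pass (edgeR adjusted p = 0.519).

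In EC, Kdr and Ednrb were called higher, against 12.1% of all genes, and Fgf9 lower, against 5.46%. In Le, Kdr and Edn3 were called higher, by 3.18 and 2.18 on the log2 scale, and Vegfc and Mdk lower, by -3.21 and -2.55, where 17.7% of all genes were higher and 9.48% lower. The Kdr call in Le rested on the few cells named above and was lost without female lane b (edgeR adjusted p = 0.00802), and the Edn3 call rested on 27 UMIs and was lost without male lane b (adjusted p = 0.00181). Le held 6 UMIs of Vegfc and 6 of Mdk, and these lower calls were weaker in 1 and 2 of the alternatives.

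Direct comparisons of neighbouring types in the order of levels passed the same limit in 10 of 70 pairs. The top step passed for Mdk (FSC over G, log2 difference 5.15, SE 0.27, adjusted p = 4.47e-09), Edn3 (FSC over Le, 4.30, SE 0.26, adjusted p = 2.94e-09) and Kdr (EC over Le, 6.44, SE 0.40, adjusted p = 1.54e-08). It also passed for Ednrb (EC over FSC, 1.85, SE 0.26, adjusted p = 9.59e-05) and Ptn (FSC over EC, 3.10, SE 0.59, adjusted p = 0.000729). It did not pass for Ptprz1 (C over S), Vegfa (G over FSC, 1.90, SE 0.39, adjusted p = 0.00122), Vegfb, Vegfc (FSC against S, -0.11, SE 0.28, adjusted p = 0.783) and Fgf9 (S over T, 0.60, SE 0.27, adjusted p = 0.2). Further down, FSC exceeded Le in Ednrb (5.78, SE 0.50, adjusted p = 5.28e-07). For Fgf9 the steps from C to FSC (1.69, SE 0.24, adjusted p = 3.79e-05) and from FSC to Le (2.86, SE 0.53, adjusted p = 0.000418) passed. Le exceeded the next type in Kdr (FSC, 3.44, SE 0.51, adjusted p = 5.44e-05) and in Edn3 (G, 2.50, SE 0.49, adjusted p = 0.000562). Among the 5 hormone-producing types no step between neighbours in Fgf9 passed, but C lay below S (-1.34, SE 0.22, adjusted p = 0.000471), with every S lane above every C lane (0.214 to 0.284).

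The FSC fell into 2 large clusters, found without the 10 genes and their pathway genes, that differed in these signals. Cluster 1 (1576 cells) had Gpha2, Sparcl1 and Apoe among its leading genes, and cluster 2 (689 cells) had Fam46b, Cldn3, Rab25, Cxcl14 and Epcam; their median depths were 6974.5 and 6509 UMIs and 50.4% and 49.6% of their cells were female. Ptn was above threshold in 94.7% of cluster 1 and 75.0% of cluster 2, at 16.2 and 5.49 UMIs per 10000. Edn3 was above threshold in 58.4% and 32.1%, at 2.88 and 1.09. For both genes all 4 lanes were higher in cluster 1, with Edn3 from 53.5 to 62.8% of cells there and from 17.2 to 42.9% in cluster 2. Vegfc followed the same order, at 29.4% and 17.4%.

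Fgf9 was the reverse, with 1.97% of cluster 1 and 12.9% of cluster 2 above threshold, and all 4 lanes were higher in cluster 2. Ednrb was at 29.6% and 37.7%, also higher in cluster 2 in all 4 lanes, but at resolution 0.5 the 3 parts of cluster 1 ran from 21.9 to 42.6%, against 37.9% in cluster 2, whereas Mdk (84.5% and 79.8%) was higher in cluster 1 in 3 of 4 lanes and Vegfa (13.3% and 12.8%) differed little. Of the small clusters, that of dividing cells led by Top2a and Cenpf held 33 cells and that led by the cilium genes Tppp3 and Spag6 held 17. In the latter, 5.88% of cells were above threshold for Edn3, 47.1% for Ptn and 41.2% for Mdk. These are descriptions with no test, since the clusters come from the same cells. The difference in Ptn narrowed to 5.11 percentage points when cells with at least 1 UMI were counted.

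**Figure D3:**
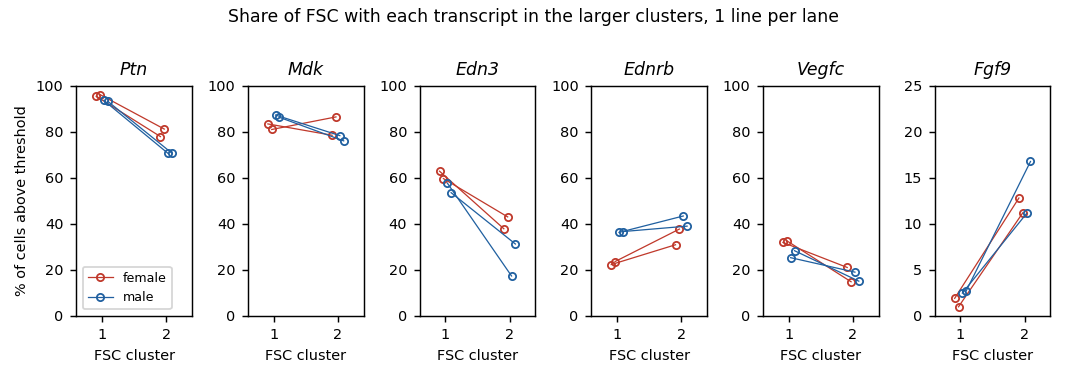
Share of FSC above threshold in the 2 larger FSC clusters for 6 genes, in percent of the cells of that cluster in a lane, with 1 line per lane (red female, blue male); the Fgf9 axis ends at 25% and the others at 100%. All lines fall from cluster 1 to cluster 2 for Ptn, Edn3 and Vegfc and rise for Ednrb and Fgf9.

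Within FSC the transcripts were combined in many cells. At 3000 UMIs per cell, 60% of the 2315 FSC held UMIs of both Ptn and Mdk and 34.9% of both Ptn and Edn3. Mdk was found in 67.7% of FSC with a Ptn UMI and 61.2% of those without, so it was common either way. Edn3 was found in 39.4% of FSC with a Ptn UMI and 24.7% of those without, and in 37.7% of FSC with a Mdk UMI and 37.8% of those without. The receptor was arranged otherwise: Ednrb was found in 14.5% of FSC with an Edn3 UMI and 18.3% of those without, and 5.49% held both. These shares are limited by depth and pool the FSC clusters. At that depth clusters 1 and 2 held Ptn in 94.5% and 75.3% of cells and Edn3 in 44.8% and 23.5%. Ednrb was in 15.7% and 19.7%. Whether the transcripts go together or apart within a cluster was not tested.

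Between the sexes, the 10 genes were tested in each type on the UMI sums of the 2 male and 2 female lanes, males minus females, so that p-values measure lane-to-lane error of 1 pool per sex. After the filter on low counts 9 of the 10 genes could be tested in FSC, 6 in C, 4 in G, 1 in T, 8 in S, 4 in L, 3 in EC and none in Le, and 3 differences were called. Ptn in FSC was 1.55-fold higher in the female pool, with lanes of 14.5 and 15.6 against 10.3 and 9.69 (log2 difference -0.63, SE 0.046, adjusted p = 1.21e-07), where 2.91% of genes were called in FSC. The order was the same in both FSC clusters, with 19.8 and 20.6 against 13.2 and 12.5 in cluster 1 and 5.73 and 6.58 against 4.87 and 4.99 in cluster 2. At resolution 0.5, cluster 1 split into 3 parts that differed in sex mix. Its part of 647 cells (55.8% female) kept the order, at 16.4 and 16.9 against 10.8 and 11.5. The sexes overlapped in the part of 475 cells (86.7% female), at 23.9 and 24.2 against 25.7 and 19.1, where the male lanes held 31 and 32 cells. They also overlapped in that of 448 cells (5.13% female), at 15.3 and 9.58 against 13.2 and 12.3, where the female lanes held 14 and 9 cells. The Y-linked gene Eif2s3y was among the leading genes of that part. Parts divided along sex cannot show whether the sexes differ within like cells. The call was lost without female lane a (log2 difference -0.70, edgeR adjusted p = 0.00165) and with no filter on low counts (-0.62, adjusted p = 0.00498).

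Vegfa in G was 2.27-fold higher in the male pool (log2 difference 1.18, SE 0.21, adjusted p = 0.000774), where 4.94% of genes were called. The lanes were 0.457 and 0.423 against 1.09 and 1.31, and 32.9% of female and 66.7% of male G were above threshold. Female G were the deeper ones, with median UMIs of 12383.5 against 8871. After thinning to 3000 UMIs the shares with a UMI were 14.4% and 31.2%. The call was lost at that depth (edgeR adjusted p = 0.0878), without male lane b (0.00647) and with DESeq2 (0.0228), with log2 differences of 1.02 to 1.18.

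Most other members differed between the sexes by less than the limit. Vegfc was higher in female FSC (log2 difference -0.60, SE 0.11, adjusted p = 0.00202) and higher in male L (1.02, SE 0.27, adjusted p = 0.00216) without passing. Ptn in L (0.69, adjusted p = 0.00155), Ednrb in FSC (0.44, adjusted p = 0.0104), Fgf9 in S (0.28, adjusted p = 0.0211) and Ptprz1 in S (0.44, adjusted p = 0.0271) had the higher values in males. Mdk in FSC differed by 0.019 (SE 0.049, adjusted p = 0.855) and Edn3 in FSC by -0.18 (SE 0.058, adjusted p = 0.0549). None of the 6 genes tested in C and none of the 8 in S or the 4 in L was called, against a background of 0.605%, 10.4% and 17.6%, and Fgf9 in T, where 1.68% of genes were called, differed by 0.64 (adjusted p = 0.640). In Le, with a background of 0.389%, no member passed the filter on low counts. Prl, the lactotroph hormone, was lower in males in each of the 8 types, from -1.47 in L to -2.53 in S on the log2 scale, and outside L these UMIs include free RNA. With 7 hormone genes left out of the counts and totals, the 3 calls remained, at -0.63 for Ptn in FSC, 1.19 for Vegfa in G and 2.96 for Ptn in EC.

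**Figure D4:**
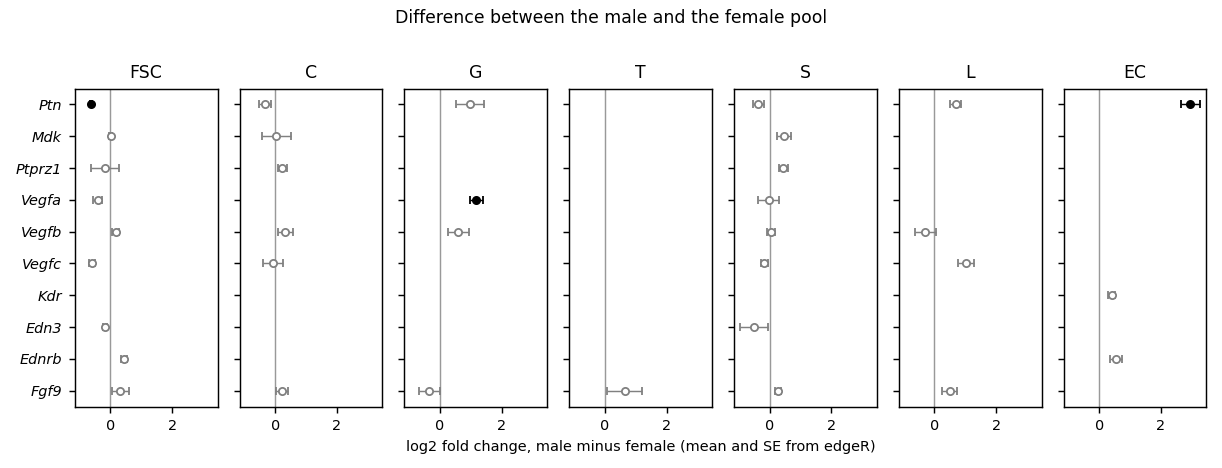
Log2 fold change between the male and the female pool of each gene tested in 7 cell types (positive when higher in males). Marks are edgeR estimates, with an SE worked out from the estimate and its F statistic. Filled marks passed an edgeR adjusted p of 0.001, and genes with no mark were too low to be tested. The filled marks are Ptn in FSC at -0.63, Vegfa in G at 1.18 and Ptn in EC at 2.95.

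The largest of the 3 called sex differences was that of Ptn in EC. It stood at 0.269 and 0.562 UMIs per 10000 in the female lanes and at 4.01 and 2.59 in the male ones, a 7.75-fold difference (log2 difference 2.95, SE 0.31, edgeR adjusted p = 3.29e-07), where 0.793% of genes were called. The other 2 members tested in EC, Kdr (0.40, adjusted p = 0.129) and Ednrb (0.54, adjusted p = 0.241), were not called. Set against the mean sex difference in the other 7 types, Ptn in EC differed by 3.10 (SE 0.38, adjusted p = 1.21e-07), where 0.0868% of genes were called in EC in either direction. At 3000 UMIs per cell the difference between the sexes was 2.51 and did not pass (adjusted p = 0.00579). Without female lane a the test against the other types gave 2.28 (adjusted p = 0.00907).

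The Ptn UMIs of EC sat in few cells, and transcripts of neighbouring cell types moved with them. The lanes held 10, 17, 78 and 73 Ptn UMIs in 4, 11, 5 and 9 of 44, 30, 23 and 35 EC, and 1 cell of male lane a held 39. UMIs of 6 pericyte genes (Col1a1, Dcn, Lum, Pdgfrb, Cspg4 and Rgs5) in EC numbered 8, 6, 103 and 89, and most were of Rgs5, at 7, 6, 84 and 73. In the 4 lanes 4, 5, 2 and 1 of the 6 genes were at 0. Those of 7 FSC genes numbered 4, 4, 12 and 43. With every EC that held a UMI of these 13 genes left out, a choice made after seeing the data, 34, 24, 14 and 20 cells remained with 9, 14, 40 and 1 Ptn UMIs. The difference between the sexes was then 1.92 (SE 0.95, adjusted p = 0.675) and no longer passed. The male lanes, at 4.45 and 0.0743 UMIs per 10000, lay on both sides of the female lanes, at 0.342 and 0.677. The value of male lane a rested on 1 cell, which held 39 of its 40 remaining Ptn UMIs. With so few cells left, this step cannot show where the Ptn UMIs came from, and their source was not tested.

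**Figure D5:**
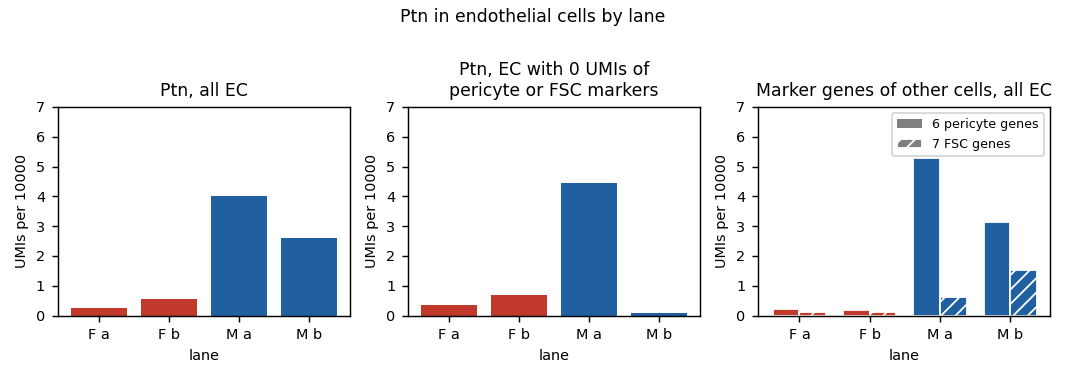
Bars from 0 with UMIs per 10000 in EC of each lane (F a and F b female, M a and M b male): Ptn in all EC on the left, Ptn in EC with no UMI of 13 pericyte or FSC marker genes in the middle, and the summed UMIs of the marker genes in all EC on the right. Ptn and both marker sums are higher in the male lanes; with those cells left out, Ptn stays high in male lane a (4.45) and falls to 0.0743 in male lane b.

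The genes around the members were read from lists of pathway genes, each described by how many of its tested genes were called in the fit between types. The lists too were chosen with earlier results of these data known, so their counts against all genes are descriptions. Of 18 tested receptors and partners of pleiotrophin and midkine, 8 were higher in FSC, against 16.4% of all genes, and none lower. Sdc1, Sdc3 and Sdc4, proteoglycans of the syndecan family that bind both growth factors, and Lrp1, an endocytic receptor for midkine, were among them, at 0.295, 0.214, 1.502 and 0.637 UMIs per 10000 of FSC. Alk, the receptor kinase, was called higher in L alone of the 8 types and was above threshold in 25.98% of L and at most 1.38% of any other type, at 0.3796 UMIs per 10000. Cntn1, which binds Ptprz1, was called higher in C, S, T and FSC. In EC 5 were higher, against 12.1% of all genes, with Sdc3 at 0.7997, the laminin receptor subunit Itga6 at 1.97 and the co-receptor Nrp1 at 3.21, and 3 lower, against 5.46%. In Le 7 of the 18 were higher, against 17.7% of all genes, and 4 lower, against 9.48%.

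The VEGF receptor genes Flt1 and Flt4 were endothelial too. Of 8 tested genes of the VEGF and angiopoietin family, 7 were higher in EC, against 12.1% of all genes, and none lower. Flt1, the receptor of VEGF-A and VEGF-B, stood at 5.96 UMIs per 10000 in EC and at most 0.0071 elsewhere, Flt4, the receptor of VEGF-C, at 1.10, and the angiopoietin receptor Tek and its relative Tie1 at 3.38 and 6.90. In FSC 3 were higher, against 16.4% of all genes, the neuropilin Nrp2 (1.0003 UMIs per 10000) and the angiopoietin genes Angpt1 (0.540) and Angpt2 (0.0465), and Tie1 was lower, against 3.61%. Of 7 tested regulators of Vegfa by oxygen, 2 were higher in EC, against 12.1% of all genes. They were Epas1, the hypoxia-inducible factor 2 subunit (5.20), and Egln3, an oxygen-sensing hydroxylase (1.24). In FSC, Epas1 (1.07) was higher, against 16.4%, and Egln2 lower, against 3.61%. Egln2 was higher in C, against 8.88%, and Epas1 lower in Le, against 9.48%. No gene of that list was called in G, the type highest in Vegfa, where the hypoxia-inducible factor subunit Hif1a stood at 1.49. With 6.45% of all genes called higher in G, 0 of 7 says little about the list.

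Of 6 tested genes of the endothelin system, 4 were higher in FSC, against 16.4% of all genes, and none lower: the ligand genes Edn1 and Edn2, the endothelin-converting enzyme Ece1 and the peptidase Mme. Edn1 and Edn2 stood at 0.0972 and 0.113 UMIs per 10000 of FSC, with 2.98% and 2.16% of cells above threshold, and Ece1 at 2.70 with 74.0%. Ece1 was also called higher in EC, where 12.1% of all genes were, and lower in L and Le. The endothelin A receptor Ednra was called higher in S, at 0.101 UMIs per 10000 and 11.6% of cells, and had no UMI in EC. Of 8 tested FGF ligands and receptors, 6 were higher in FSC, against the same 16.4%, among them Fgfr3 (0.368 UMIs per 10000 and 22.3% of cells, at most 0.758% elsewhere), a receptor of FGF9, Fgfr1 (1.13) and Fgfr2 (0.281), and both Fgfr1 and Fgfr2 were also higher in EC (1.33 and 0.365). Fgfr1 was called higher in T too, against 3.15% of all genes, and lower in G. Of 9 feedback genes of FGF signalling 8 were higher in FSC, against 16.4% of all genes, with Etv4, Spry2 and Dusp6 at 0.340, 0.3797 and 0.999 UMIs per 10000, and 3 were lower in S, against 2.53%. In EC 3 of them were higher, against 12.1%, and 1 lower, against 5.46%, and in Le 2 were higher, against 17.7%.

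Some of these genes differed between the sexes in the same types. By list, in the order above, FSC had 2 of 16, 1 of 5, 1 of 7, 0 of 5, 1 of 10 and 2 of 9 called, against 2.91% of all genes. G had 1 of 6, 1 of 1, 1 of 4, 1 of 2, 1 of 2 and 0 of 1, against 4.94%. L had 1 of 9, 0 of 2, 0 of 5, 1 of 3, 0 of 1 and 0 of 4, against 17.6%. S had 1 higher and 1 lower of 11, 1 of 1, 1 higher and 1 lower of 6, 1 of 3, 0 of 3 and 1 of 7, against 10.4%. T had 1 of 2 endothelin genes, against 1.68%. These counts are too small to read a list as a whole. In FSC, Sdc3 (1.05), Nrp2 (0.69), Spry2 (0.83), Etv1 (0.82) and Cntn1 (0.64) were higher in males and the FGF receptor gene Fgfr3 (-0.84) higher in females, on the log2 scale. In G, where Vegfa was higher in males, Hif1a was higher in females, at 1.69, 2.08, 0.579 and 0.767 UMIs per 10000 (-1.75, SE 0.21, edgeR adjusted p = 1.49e-05). Pgf, another VEGF family ligand, had 49 and 38 UMIs in the female G lanes and 0 in both male ones, and Ecel1, related to the endothelin-converting enzymes, had 150 and 139 against 1 and 2. Fgf13 was higher in female G (-3.18) and Sdc1 in male G (3.10). In L, Alk was higher in males, at 0.164, 0.253, 0.712 and 0.745 UMIs per 10000 (1.15, SE 0.21, adjusted p = 1.83e-05), and Ecel1 higher in females, as it was in T (-2.30). In S, Epas1 (1.41), Ecel1 (1.56) and Sdc2 (0.63) were higher in males and Hif1a (-0.95), Angpt1 (-1.41) and Itga6 (-3.22) higher in females.

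Cells left out of the 9 types carried some of the same transcripts, in part at higher levels than any of the 9 types as a whole. Unlike the 9 types, they were not filtered for doublets, mitochondrial counts or depth. The 51 pericytes were named by the study's marker rule (Col1a1, Col1a3, Dcn and Lum). Of pericyte markers outside that rule, Pdgfrb was above threshold in 70.6% of them, Rgs5 in 19.6% and Cspg4 in 15.7%, so their identity is not settled. At least 1 UMI of Ptn was present in 98.0% of these cells, of Mdk in 100% and of Edn3 in 78.4%. The levels were 17.0, 8.94 and 10.7 UMIs per 10000, with Ptn and Mdk at 12.3 and 4.29 over all FSC. The FSC part of 475 cells at resolution 0.5 held Ptn at 23.8, above these pericytes. None held a Ptprz1 or Ednrb UMI, with an upper 95% bound of 6.98% of cells. The Edn3 level in pericytes was 14.4 in females and 8.43 in males, against 2.18 over all FSC. The 59 cells named as posterior lobe, 55 of them male, held Ptn at 22.5 UMIs per 10000, Mdk at 12.4 and Vegfa at 1.38 in 50.8% of cells. The paper calls their posterior origin putative, and their marker rule includes the FSC marker S100b. They were not checked with markers outside that rule. Vegfa stood at 0.685 over all G. In the 60 melanotrophs, 56 of them male, 40.0% of cells held Mdk, 40.0% Fgf9 and 25.0% Vegfb. With 20 female pericytes and 4 female cells in each of the other 2 populations, no difference between the sexes was tested.

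The genes whose levels followed a member most closely over the 36 sums of 9 types and 4 lanes are given as a description, since the sums share lanes and depth; 12131 genes were compared by Pearson's correlation on a log2 scale of depth-normalized counts. Kdr was closest to the endothelial genes Tek (r = 0.978) and Eng (0.976), and Ednrb to LOC681355 and Cdc42ep1 (both 0.979). Fgf9 was closest to Crb3 (0.975) and to the secretory granule gene Scg5 (0.967), Edn3 to LOC102552849 (0.9496) and Car13 (0.933), and Mdk to the receptor gene Gpr37l1 (0.929) and Nkain4 (0.915). Ptn was closest to Gstm5 (0.912) and Dpy19l3 (0.890), and Ptprz1 to Elavl2 (0.905) and Cacng2 (0.902). For the VEGF ligands the highest values were 0.942 for Vegfb with Med24 and 0.935 with Nol12, 0.885 for Vegfc with Ppp2r3a and 0.882 with Trim2, and 0.833 for Vegfa with Clmn and 0.826 with Homer1.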

How the data were processed

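The authors deposited 1 matrix of raw UMI counts per gene and cell for all lanes, made with Cell Ranger 2.1 per the labels; by their methods, depth was equalised between lanes in mapped reads and gene 3′ ends were extended. The matrix names lanes only by a barcode suffix. Lanes were given a sex by their number of cells, as the study's methods state it, and checked with Eif2s3y, of which the lanes held 0, 1, 2100 and 2038 UMIs. Ddx3y, at 10, 8, 14 and 11 UMIs, did not separate them. Lanes are technical replicates of 1 pool per sex, so p-values of sex differences measure the spread between lanes only. The fit between types used sums per type and sex. Its p-values rest on how type differences varied between the female and the male pool, with no spread between animals. Intervals and limits cover counting error only.

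Of 7861 cells, 1016 were removed: 194 doublets by simulated doublets, 274 cells high in mitochondrial counts and 328 depth outliers overlapped in part, beside pericytes, melanotrophs and posterior pituitary cells, while 219 cells without a clear marker were assigned by their neighbours and 207 stayed ambiguous. Types were rebuilt from marker genes and Otsu thresholds (256 bins) and can differ from those of the study. UMIs were summed per type and sex or lane and tested with edgeR 4.0.16 (quasi-likelihood, TMM, filterByExpr with a minimum count of 10, Benjamini-Hochberg) in R 4.3.3, with DESeq2 1.42.0 as an alternative. Clusters were made with scanpy 1.11.5 (1000 variable genes, 30 components, 30 neighbours, resolution 0.2) without the 10 genes. Each SE of an edgeR difference is the absolute log2 difference divided by the square root of its F statistic. It is approximate, and unreliable where a type held few or no UMIs of the gene. The statistics were tested on simulated data with 200 changed genes. The members and pathway lists were chosen with earlier results of these data known. Named were all 10 genes, at most 4 higher genes per list and type by fold, at most 6 list genes per type between the sexes by adjusted p, and the 2 most similar genes of each member. Alternatives covered normalization, tool, filter, depth, cells, hormone genes and each lane left out, and 1 was added after seeing the data.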

Additional observations from a re-analysis of the deposited data

Results flagged for a closer look

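The sex difference of Ptn in EC differed from that in the other 7 types by 3.10 on the log2 scale in a direct test of the difference (edgeR interaction, SE 0.38, adjusted p = 1.21e-07), with higher values in both male lanes than in both female lanes. With EC that held a UMI of the 13 pericyte or FSC marker genes left out, it was 1.96 (adjusted p = 0.393).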

How the results depend on the processing

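No paired analysis was possible because the barcodes carry no replicate numbers. Between types, 19 calls were higher and 4 lower, and no direction was reversed under any alternative. Leaving out each lane gave 15 to 19 higher and 3 to 5 lower. The lower calls numbered 7 with DESeq2, 11 with no filter on low counts, 7 with sums per lane, 1 after thinning to 3000 UMIs and 14 at an adjusted p of 0.05. Between the sexes, 2 calls were higher in males and 1 in females. The former numbered 5 with library sizes alone, 1 with DESeq2, 0 after thinning, 4 with outliers and doublets kept, 1 with marker-positive EC left out and 7 at 0.05, and 2 to 3 with a lane left out. The latter numbered 0 with no filter and 2 at 0.05, and 0 to 1 with a lane left out (0 without female lane a). For a sex difference that differed between types, 1 call was more male and 0 more female. More male were 3 with library sizes alone, 0 with marker-positive EC left out and 2 at 0.05, and 0 to 1 with a lane left out. More female were 1 with no filter and 1 at 0.05, and 0 to 1 with a lane left out. Without female lane a these were 0 and 1. The cause of these shifts was not tested. Leaving out marker-positive EC also lowered the number of cells, so it cannot serve as such a test.

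Counting cells with at least 1 UMI gave 96.8% for Ptn, 88.1% for Mdk and 56.4% for Edn3 in FSC, 97.7% for Kdr in EC and 32.05% for Vegfc in S, and narrowed the difference in Ptn between FSC clusters to 5.11 percentage points. At 3000 UMIs per cell the shares were 67.0% for Mdk and 37.8% for Edn3 in FSC, 14.2% for Ptprz1 in C, 20.9% for Vegfa and 8.79% for Vegfb in G, 8.78% for Vegfc and 13.2% for Fgf9 in S and 56.1% for Ednrb in EC. Shares of the low genes are thus limited by depth, and T and EC by their 85 and 132 cells.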
